A study of Homo sapiens with 6 samples.

Results

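The genes described here are the 7 CDK inhibitor genes of the human genome (CDKN1A, CDKN1B, CDKN1C, CDKN2A, CDKN2B, CDKN2C and CDKN2D), together with MTAP, CCND1 and RB1. They were taken by symbol, and all 10 were listed among the 26484 genes of the deposited tables. RNA was sequenced from MCF10CA1a, a malignant human breast epithelial line derived from MCF10A, cultured on Matrigel-conjugated gel dishes of high stiffness (8000 Pa, 3 libraries) or low stiffness (500 Pa, 3 libraries). Both groups were the same cell line in the same horse serum medium, with 0.14 mg/ml growth factor-reduced Matrigel on the gel, a medium change on day 4 and TRIzol extraction on day 5. The labels describe the RNA as cytosolic and the replicates, numbered 1 to 3, as biological, and 1 cell line is all that either group represents.

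The cell cycle brakes act on the cyclin-dependent kinases (CDKs). The INK4 proteins, made by CDKN2A (p16), CDKN2B (p15), CDKN2C (p18) and CDKN2D (p19), bind the CDK partners of D-type cyclins, while the CIP/KIP proteins p21 (CDKN1A), p27 (CDKN1B) and p57 (CDKN1C) bind cyclin-CDK complexes more broadly. Cyclin D1, the product of CCND1, activates the kinases that phosphorylate the retinoblastoma protein (RB1), which otherwise holds back E2F factors and entry into S phase. CDKN2A, CDKN2B and MTAP, which encodes a methionine salvage enzyme, lie side by side on the short arm of chromosome 9 at band 9p21, a segment often lost as a unit in tumours. Loss of the CDKN2A region has been described for MCF10A.

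Of the 10 genes, 4 were silent in all libraries, by the criterion of at most 3 counts in each of the 6. They were the 3 genes of 9p21 and CDKN1C. CDKN2A and CDKN2B had 0 counts in every library at 8000 Pa and 0 in every library at 500 Pa, and CDKN1C also had 0 in all 6. With 3 counts as the limit that a count of 0 allows, that is at most 0.0994 CPM (counts scaled to a library of 1000000) over the 30168611 counts at 8000 Pa and at most 0.0842 CPM over the 35611721 counts at 500 Pa. Such limits and the Poisson intervals given here cover counting error only. MTAP had 3, 0 and 3 counts in 8000 Pa replicates 1, 2 and 3, against 3, 1 and 3 counts in 500 Pa replicates 1, 2 and 3. Its summed level was 0.199 CPM at 8000 Pa (95% Poisson interval 0.0730 to 0.433) and 0.197 CPM at 500 Pa (0.0790 to 0.405). No difference between stiffnesses was detectable for these 4 genes at this depth, and none of them entered the test. Silence as such is common in the tables. Of all listed genes 45.5% met the same criterion (36.2% had 0 counts in every library), and of those annotated as protein coding 32.4% did, so 4 of 10 is near the background and is not a result about the group as a whole.

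The starts of the silent 9p21 genes are shown because no read was counted for CDKN2A or CDKN2B, and the start of CDKN1A, the brake with the highest level, is shown for comparison. Each window runs from 250 bases before to 50 bases after a RefSeq start on GRCh38.p14 and is 300 bases long, written 5′ to 3′ on the gene's strand. Capitals mark the GC box GGGCGG on either strand, the letters that Sp1-type factors recognise; 2 copies of it may share bases. CDKN2A has one start for the p14ARF transcript (chr9:21995275-21995574, minus strand) and one for p16 (chr9:21974808-21975107, minus strand). The CDKN2B window is chr9:22009256-22009555 (minus strand), the MTAP window chr9:21802386-21802685 (plus strand) and the CDKN1A window chr6:36678464-36678763 (plus strand).
CDKN2A, p14ARF start: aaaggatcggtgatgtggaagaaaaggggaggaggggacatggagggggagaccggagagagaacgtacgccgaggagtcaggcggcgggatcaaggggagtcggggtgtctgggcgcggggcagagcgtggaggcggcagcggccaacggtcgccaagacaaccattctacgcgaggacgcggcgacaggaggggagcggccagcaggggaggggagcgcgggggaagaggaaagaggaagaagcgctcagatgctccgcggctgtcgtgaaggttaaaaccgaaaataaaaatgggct
CDKN2A, p16 start: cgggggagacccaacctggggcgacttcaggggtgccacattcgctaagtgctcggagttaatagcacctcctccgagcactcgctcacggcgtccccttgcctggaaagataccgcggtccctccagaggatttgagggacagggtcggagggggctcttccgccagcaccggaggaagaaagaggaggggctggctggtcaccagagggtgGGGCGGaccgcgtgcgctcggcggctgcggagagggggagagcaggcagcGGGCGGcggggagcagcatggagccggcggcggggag
CDKN2B: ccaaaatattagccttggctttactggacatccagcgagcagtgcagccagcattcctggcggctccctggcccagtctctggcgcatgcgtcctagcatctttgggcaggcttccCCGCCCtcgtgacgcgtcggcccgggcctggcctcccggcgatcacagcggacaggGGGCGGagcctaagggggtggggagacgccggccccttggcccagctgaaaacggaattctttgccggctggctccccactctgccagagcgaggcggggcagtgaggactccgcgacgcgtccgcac
MTAP: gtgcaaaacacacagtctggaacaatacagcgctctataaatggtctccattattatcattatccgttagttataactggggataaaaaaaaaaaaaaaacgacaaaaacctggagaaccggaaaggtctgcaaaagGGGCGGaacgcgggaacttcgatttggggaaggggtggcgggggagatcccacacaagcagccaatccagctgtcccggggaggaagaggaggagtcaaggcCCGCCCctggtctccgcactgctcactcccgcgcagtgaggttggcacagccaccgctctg
CDKN1A: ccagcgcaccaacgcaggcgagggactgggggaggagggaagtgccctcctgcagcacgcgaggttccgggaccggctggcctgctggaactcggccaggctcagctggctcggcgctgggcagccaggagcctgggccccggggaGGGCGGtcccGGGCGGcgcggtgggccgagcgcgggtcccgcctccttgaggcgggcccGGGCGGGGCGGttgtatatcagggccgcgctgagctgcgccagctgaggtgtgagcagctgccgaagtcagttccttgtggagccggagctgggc

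The GC box occurred 0 times at the p14ARF start, 2 times at the p16 start, 2 times in CDKN2B, 2 times in MTAP and 4 times in CDKN1A, and 45.0% of all 35116 windows of this length held it at least once. The silent and the abundant brake were both GC-rich there, with 63.3% and 69.0% G and C in the p14ARF and p16 windows, 67.3% in CDKN2B and 74.3% in CDKN1A, against a median of 58.7% over all windows. The MTAP window, at 53%, lay below that median. CpG pairs were present at 1.13 and 0.764 times the number the base composition predicts in the p14ARF and p16 windows, at 0.736 times in CDKN2B, 0.715 in MTAP and 0.722 in CDKN1A, against a median of 0.579. Of the other motifs searched, TATAAA occurred once in MTAP (11.5% of all windows held it), CCAAT occurred once in MTAP (34.6%), and TTTNNCGC, the letters of an E2F-type site, occurred in none of these 5 windows (6.89%). All motifs were searched on both strands. These matches describe the letters of the reference genome, and no letter of the cells' own DNA was read here.

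**Figure D1:**
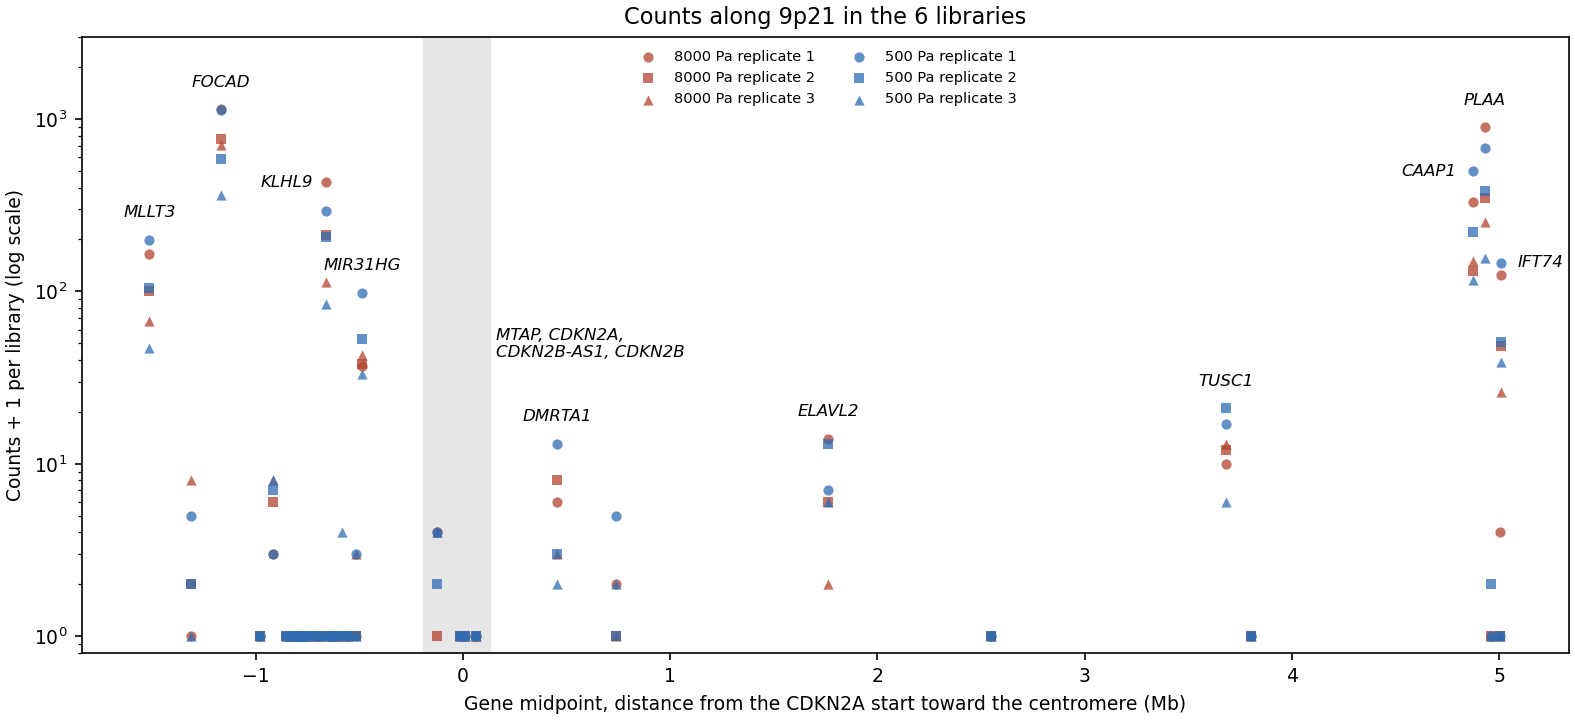
Counts plus 1 (log axis) in each library against the distance of each listed gene's midpoint from the CDKN2A start, with 8000 Pa libraries in red, 500 Pa libraries in blue and replicates by symbol; a value of 1 is a count of 0 and microRNA genes are left out. The grey band holds MTAP, CDKN2A, CDKN2B-AS1 and CDKN2B, which had at most 3 counts in any library, between MIR31HG with 32 to 97 counts and DMRTA1 with 1 to 12.

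Along the chromosome the silent 9p21 members lay side by side, in a block bounded here by MTAP and CDKN2B-AS1. Other genes of the wider window were silent too, as given below. In GENCODE 29 on GRCh38, MTAP spans positions 21802543 to 21937651 of chromosome 9, CDKN2A 21967753 to 21995301 and CDKN2B 22002903 to 22009363. The long noncoding RNA gene CDKN2B-AS1, also called ANRIL, spans 21994778 to 22121097. From the start of MTAP to the end of CDKN2B-AS1 is 318555 bases, and all 4 genes matched there by symbol were silent, 3 of them at 0 in all 6 libraries. CDKN2A-AS1, listed in the tables under a symbol that the annotation lacks, also had 0 counts in every library.

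Genes on both sides of the block were counted. On the telomeric side the nearest was MIR31HG, the host gene of microRNA 31, which ends 242873 bases before MTAP. It had 36, 37 and 42 counts in 8000 Pa replicates 1 to 3, against 97, 52 and 32 in 500 Pa replicates 1 to 3 (3.65 ± 0.690 and 5.26 ± 0.633 CPM, SD, n = 3 each; log2 fold change -0.53, SE 0.40, adjusted p of 1.00 by edgeR). Every 8000 Pa library lay below every 500 Pa library in CPM, without passing the test. Of all tested genes 6.87% had groups that did not overlap. Further out lay KLHL9, an adaptor of a ubiquitin ligase, at 22.6 ± 11.5 CPM at 8000 Pa and 17.01 ± 5.55 CPM at 500 Pa, with 113 to 430 counts at 8000 Pa and 83 to 292 at 500 Pa. On the centromeric side DMRTA1, which starts 325743 bases after CDKN2B-AS1, had 5, 7 and 2 counts at 8000 Pa and 12, 2 and 1 at 500 Pa. ELAVL2 and TUSC1 were also low, at 1 to 13 and 9 to 12 counts at 8000 Pa against 5 to 12 and 5 to 20 at 500 Pa. The first gene on that side with more than 10 counts in every library was CAAP1, 4719587 bases away, at 18.3 ± 6.96 CPM at 8000 Pa and 23.0 ± 5.88 CPM at 500 Pa. DNA copy number was not measured, so a lost segment and a silenced one cannot be told apart from these counts.

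Over the wider window from MLLT3 to IFT74, 42 listed genes were found and 29 were silent, where 45.5% of all listed genes were. Of the 29 silent genes, 16 were among the 17 type I interferon genes or pseudogenes that cluster there, most of which are usually off without viral stimulus. The remaining interferon, IFNB1, had 2, 5 and 7 counts at 8000 Pa and 2, 6 and 7 at 500 Pa. FOCAD, which encodes focadhesin, was the most abundant gene of the window at 80.7 ± 10.2 CPM at 8000 Pa and 60.0 ± 7.43 CPM at 500 Pa (log2 fold change 0.43, adjusted p of 1.00 by edgeR). In FOCAD every 8000 Pa library lay above every 500 Pa library, without passing the test. Groups that did not overlap were seen in 6.87% of all tested genes. PLAA, at the far end, had 44.2 ± 24.2 CPM at 8000 Pa and 34.1 ± 10.6 CPM at 500 Pa. Of the 25 genes fixed in the 9p21 list 8 could be tested, 0 rose and 0 fell, 4 lay above 0 and 4 below, and their median log2 fold change was -0.05 beside 0.01 over all tested genes.

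MTAP stood apart from the pathway it belongs to. The other 13 genes of methionine salvage, methyl donor supply and the PRMT5 methyltransferase complex were all tested, so none was silent. MRI1, APIP, ENOPH1 and ADI1, the enzymes that act after MTAP in salvage, had 121 to 225, 192 to 534, 369 to 841 and 264 to 348 counts at 8000 Pa and 114 to 198, 144 to 432, 252 to 926 and 152 to 367 at 500 Pa. MAT2A, which makes S-adenosylmethionine, had 381 ± 63.7 CPM at 8000 Pa and 339 ± 36.8 CPM at 500 Pa. PRMT5, an arginine methyltransferase that the substrate of MTAP inhibits, had 155 ± 23.5 CPM at 8000 Pa and 179 ± 37.2 CPM at 500 Pa. In this list 0 genes rose and 0 fell, 9 lay above 0 and 4 below, and the median log2 fold change was 0.13.

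How reads were assigned limits what a 0 can say. In GENCODE 29, 92.1% of the exonic bases of CDKN2A and 90.4% of those of MTAP belong to no other gene, and for CDKN2B and CDKN1C the share is 100%. The tables also list at or near 0 some genes that most cells use. RING1, a polycomb subunit, had 0 counts in all 6 libraries, and BMI1, another, had 0 in each 8000 Pa library and 1, 0 and 0 at 500 Pa. Of the exonic bases of BMI1 76.7% are unshared, and for RING1 the share is 100%. The part that read assignment plays in the zeros of CDKN1C and of 9p21 was not tested.

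CDKN1C, the gene of p57, lies on chromosome 11 from 2883213 to 2885773 (GRCh38) in an imprinted cluster, where the copy from one parent is normally off. Of the 14 neighbours fixed for that cluster 7 were silent, among them KCNQ1, IGF2 and H19 at 0 counts in all 6 libraries. The same criterion was met by 45.5% of all listed genes and 32.4% of those annotated as protein coding. A count of 7 of 14 is near the first share and is not a result about the cluster. PHLDA2, an imprinted neighbour, had 1, 3 and 2 counts at 8000 Pa and 1, 1 and 1 at 500 Pa. KCNQ1OT1, the long noncoding RNA that silences the cluster in cis, had 4, 0 and 4 counts at 8000 Pa and 0, 0 and 2 at 500 Pa. Other neighbours were counted, with the transporter gene SLC22A18 at 24.2 ± 20.8 CPM at 8000 Pa and 35.2 ± 26.5 CPM at 500 Pa, and CD81, a tetraspanin, at 21.8 ± 8.44 and 31.8 ± 12.4 CPM at 8000 and 500 Pa. Of the 6 tested, 0 rose and 0 fell, with a median log2 fold change of -0.06. CDKN1C was the only silent member outside 9p21.

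The comparison of 8000 Pa with 500 Pa asked whether the brakes and their targets differ with stiffness. Of the 6 members with enough counts to be tested, 0 rose and 0 fell by edgeR's quasi-likelihood test at a false discovery rate of 0.05, where 0 of 11517 tested genes passed (0.0% called) and 282 genes (2.45%) had an unadjusted p under 0.05. None of the 6 members (0) had an unadjusted p under 0.05 either. In the fit that also holds a term for each replicate number, the blocked fit, 61 of the 11517 genes passed (0.53% called, 0.26% higher and 0.269% lower) and again 0 of the 6 members. Its log2 fold changes were -0.28 (SE 0.25) for CDKN1A, 0.13 (SE 0.31) for CDKN1B and 0.09 (SE 0.37) for CDKN2C. They were 0.32 (SE 0.37) for CDKN2D and 0.42 (SE 0.31) for RB1. The adjusted p of these genes ran from 0.696 to 0.979 by edgeR, and CCND1 is given below. DESeq2 called 0 members with the block (0.365% of genes called) and 0 without it (0.0608%). For stiffness alone the 6 log2 fold changes had a median of 0.16, beside 0.01 over all tested genes. Of the 6, 5 lay above 0, beside 5901 of the 11517 tested genes. Over the alternatives only CCND1 and RB1 always kept their sign. In the CPM of all 6 the groups overlapped, while over all tested genes 6.87% had groups that did not.

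**Figure D2:**
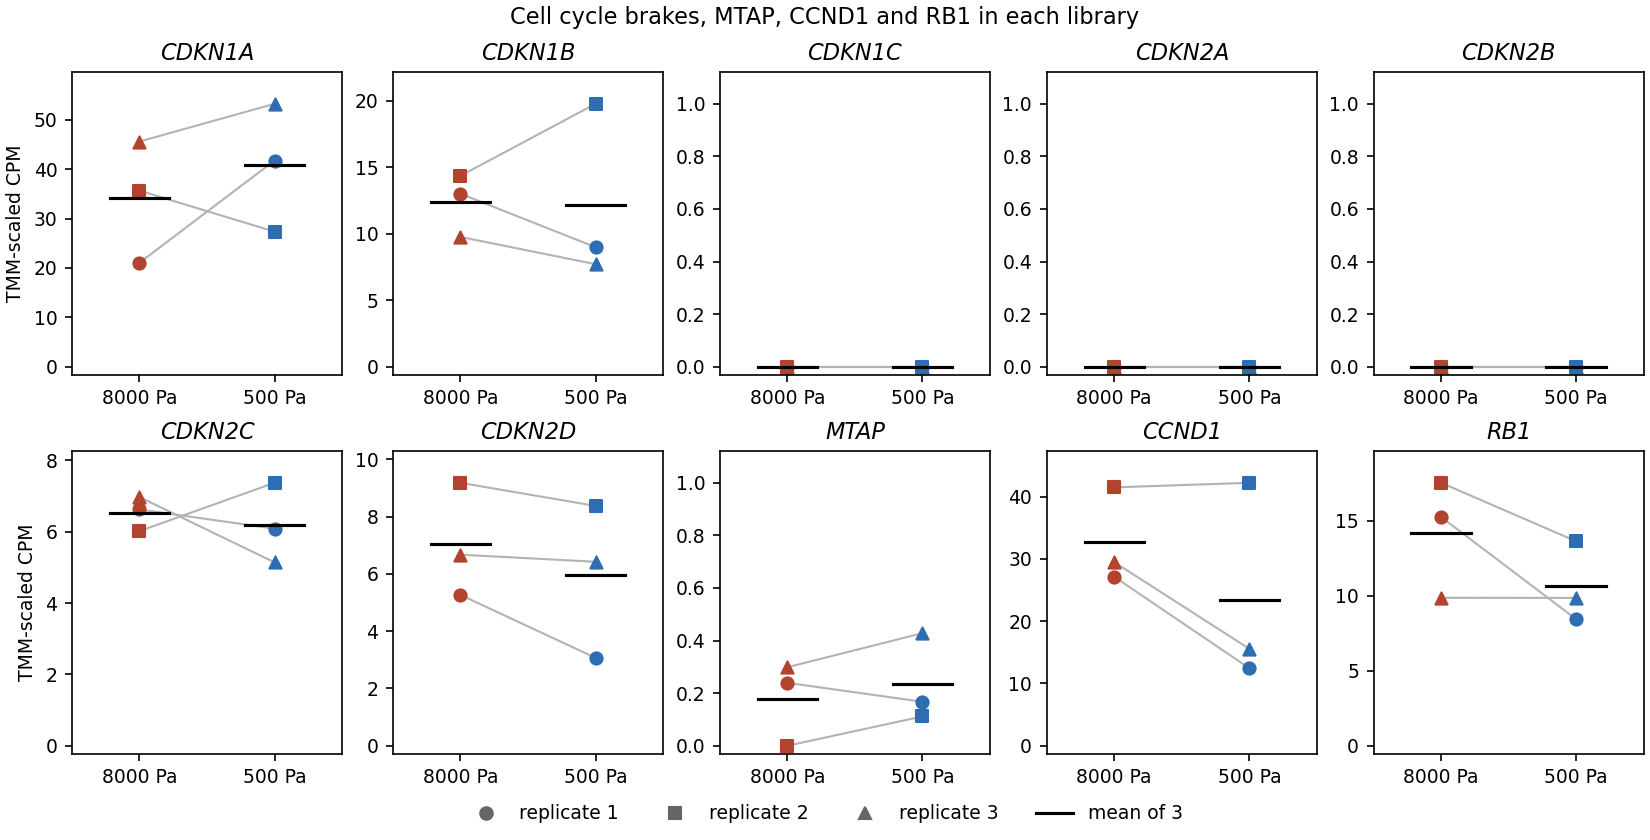
TMM-scaled CPM of each gene in the 8000 Pa (red, left) and 500 Pa (blue, right) libraries, with same-numbered replicates joined by grey lines and black bars for means of 3; the axes differ in scale. CDKN1A and CCND1 reach 53.2 and 42.2 CPM, CDKN1C, CDKN2A and CDKN2B lie at 0, and in no gene above 0 do the 2 groups separate.

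CDKN1A encodes p21, an inhibitor induced after DNA damage, and it had the highest level of the brakes. It had 21.1, 35.7 and 45.6 CPM in 8000 Pa replicates 1, 2 and 3, against 41.7, 27.4 and 53.2 CPM in 500 Pa replicates 1, 2 and 3. The lowest value came from 8000 Pa replicate 1 and the highest from 500 Pa replicate 3, and the other 4 libraries interleaved. The means were 34.1 ± 12.3 CPM at 8000 Pa and 40.8 ± 12.97 CPM at 500 Pa (SD, n = 3 each), and edgeR gave a log2 fold change of -0.26 (SE 0.35) with an adjusted p of 1.00. The 95% interval of the fold ran from 0.492 to 1.42. The fold change lay below 0 in 2 of the 3 same-numbered pairs, at -0.98, 0.38 and -0.22 in pairs 1, 2 and 3.

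The order of the libraries by CDKN1A was the order along their main axis of variation. The first principal component of all tested genes held 49.1% of the variance, and its gene loadings had a Spearman rho of 0.79 with transcript GC content over 11003 genes, which are not independent replicates. From lowest to highest it ranked 8000 Pa replicate 1, 500 Pa replicate 2, 8000 Pa replicate 2, 500 Pa replicate 1, 8000 Pa replicate 3 and 500 Pa replicate 3. CDKN1A had the same place in all 6 libraries, and among the other tested members CDKN2C shared 1 place and CDKN1B, CDKN2D, CCND1 and RB1 shared 0. A count of shared places does not register a reversed order. Place 1 is the lowest CPM. Along the axis CDKN1B had places 4, 6, 5, 2, 3 and 1, and RB1 had 5, 4, 6, 1, 3 and 2. CCND1 had 3, 6, 5, 1, 4 and 2, and CDKN2C had 4, 6, 2, 3, 5 and 1. CDKN2D had 2, 5, 6, 1, 4 and 3. CDKN1A's longest coding transcript is 58.1% G and C, that of CDKN2D 61.3%, CCND1 50.3%, CDKN1B 47.7% and RB1 37.3%. With an offset for GC content and length the log2 fold change of CDKN1A was -0.08, that of CDKN2C, whose transcript is also 58.1% G and C, was 0.23 in place of 0.07, and that of CDKN2D was 0.58 in place of 0.25. The offset gave -0.07 for CDKN1B, 0.37 for CCND1 and 0.35 for RB1. For CDKN1A, the value without 8000 Pa replicate 1 was -0.00. The part of this axis in the values of CDKN1A was not otherwise tested. The 3 genes whose log2 CPM was most like that of CDKN1A over the 6 libraries were REEP6, RNF31 and PI4KB, with Pearson r of 0.995, 0.995 and 0.994 among 8703 genes, given as a description of 6 libraries that share this axis.

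**Figure D3:**
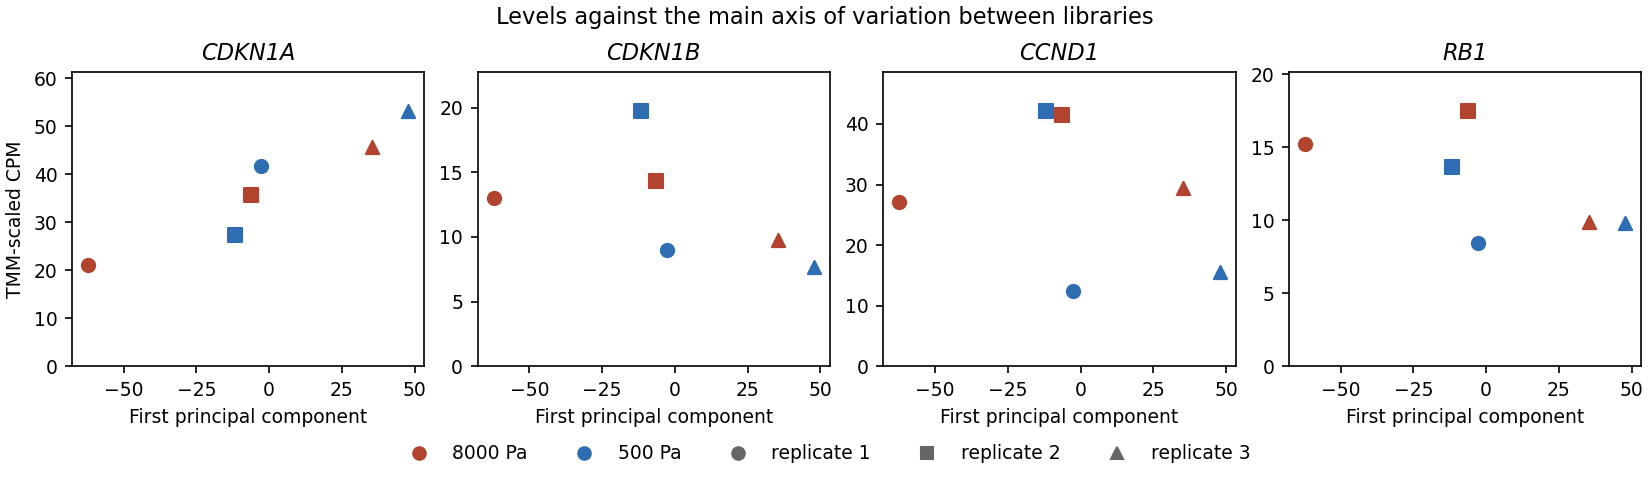
TMM-scaled CPM of CDKN1A, CDKN1B, CCND1 and RB1 in each library against the library's score on the first principal component of all tested genes (unitless), with 8000 Pa in red, 500 Pa in blue and replicates by symbol. CDKN1A is lowest, at 21.1 CPM, in the library with the lowest score (8000 Pa replicate 1) and highest, at 53.2 CPM, in the one with the highest score (500 Pa replicate 3).

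CDKN1B encodes p27, the inhibitor that accumulates in resting cells and that SKP2 marks for destruction. It had 13.003, 14.3 and 9.76 CPM in 8000 Pa replicates 1, 2 and 3, against 8.99, 19.8 and 7.71 CPM in 500 Pa replicates 1, 2 and 3. The highest and the lowest library were both at 500 Pa, so the 8000 Pa values lay inside the 500 Pa range. The means were 12.4 ± 2.36 CPM at 8000 Pa and 12.2 ± 6.62 CPM at 500 Pa, with a log2 fold change of 0.03 (SE 0.41, adjusted p of 1.00 by edgeR, 95% interval of the fold 0.554 to 1.87). Its direction was not stable, since it turned below 0 when any of 4 single libraries was left out.

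The remaining INK4 genes were both low and counted in every library. CDKN2C, the gene of p18, had 6.62, 6.01 and 6.97 CPM in 8000 Pa replicates 1, 2 and 3, against 6.08, 7.37 and 5.14 CPM in 500 Pa replicates 1, 2 and 3. It varied least of the tested members, at 6.53 ± 0.483 CPM at 8000 Pa and 6.20 ± 1.119 CPM at 500 Pa (log2 fold change 0.07, SE 0.37, 95% interval of the fold 0.609 to 1.82). CDKN2D, the gene of p19, had 5.27, 9.18 and 6.67 CPM in 8000 Pa replicates 1, 2 and 3, against 3.07, 8.37 and 6.42 CPM in 500 Pa replicates 1, 2 and 3. Replicate 2 was the highest of its group at both stiffnesses and replicate 1 the lowest. CDKN2D lay above 0 in all 3 pairs, at 0.74, 0.13 and 0.05, and its log2 fold change was 0.25 (SE 0.44, adjusted p of 1.00 by edgeR, 95% interval of the fold 0.614 to 2.32). Without 500 Pa replicate 1 that value was -0.07.

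**Figure D4:**
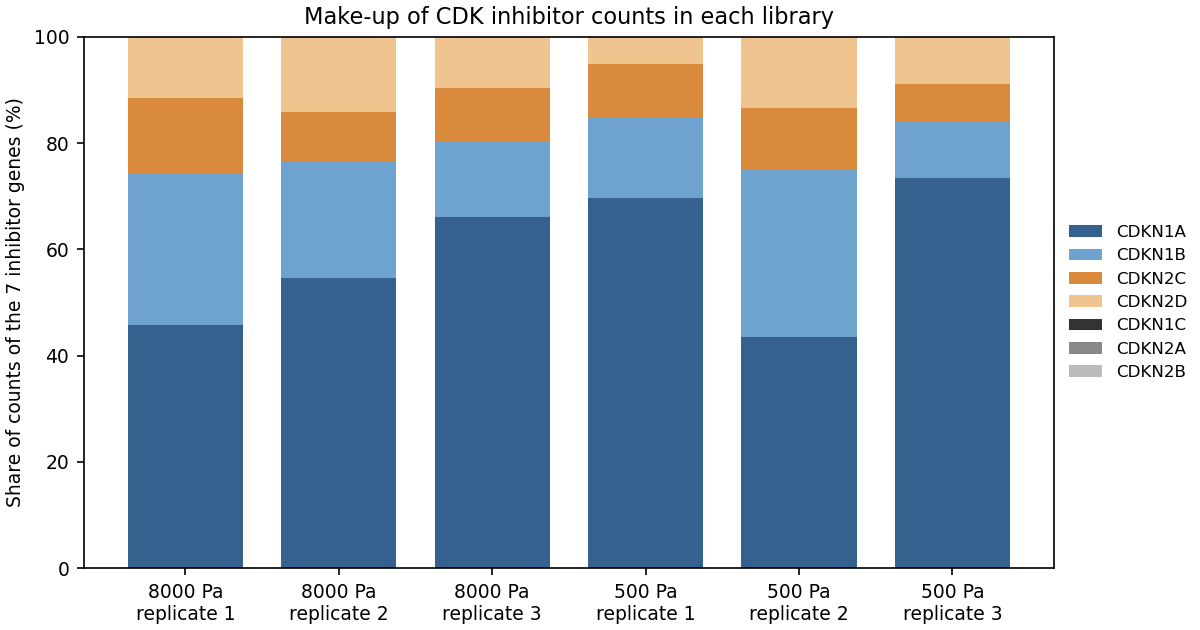
Share of the summed raw counts of the 7 CDK inhibitor genes that each gene held in each library (stacked bars, percent, 8000 Pa libraries on the left). CDKN1A held 45.8% to 66.1% at 8000 Pa and 43.5% to 73.4% at 500 Pa, and CDKN1C, CDKN2A and CDKN2B held 0.

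Of the 7 inhibitor genes 4 had counts in these libraries. CDKN1A held 45.8%, 54.7% and 66.1% of the inhibitor counts in 8000 Pa replicates 1, 2 and 3, against 69.7%, 43.5% and 73.4% in 500 Pa replicates 1, 2 and 3. CDKN1B held 28.3%, 22.007% and 14.1% at 8000 Pa and 15.005%, 31.4% and 10.6% at 500 Pa. CDKN2C and CDKN2D together made up the rest, with CDKN2C at 9.22% to 14.4% at 8000 Pa and 7.09% to 11.7% at 500 Pa. The libraries with the largest share of CDKN1A had the smallest share of CDKN1B, as shares of one sum must tend to do. These shares are of counts and are not corrected for transcript length.

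Per kilobase of annotated exon the order of the mean levels was CDKN1A, CCND1, CDKN1B, CDKN2D, RB1, CDKN2C and MTAP. CDKN1A had 11.2 ± 4.05 CPM per kb at 8000 Pa and 13.4 ± 4.25 at 500 Pa, and CCND1 had 6.77 ± 1.59 and 4.84 ± 3.39 CPM per kb at 8000 and 500 Pa. CDKN1B had 4.40 ± 0.840 CPM per kb at 8000 Pa and 4.32 ± 2.36 at 500 Pa, and CDKN2D had 4.68 ± 1.32 and 3.96 ± 1.78 CPM per kb at 8000 and 500 Pa. RB1 had 2.20 ± 0.610 CPM per kb at 8000 Pa and 1.65 ± 0.416 at 500 Pa, close to CDKN2C at 1.97 ± 0.146 and 1.87 ± 0.337 CPM per kb at 8000 and 500 Pa. MTAP did not exceed 0.0204 CPM per kb at 8000 Pa and 0.0293 CPM per kb at 500 Pa. Over the 6 libraries the ranges of neighbours in this order overlapped except between CDKN2C and MTAP. Within libraries CDKN1A was above CCND1 in 6 of 6 and CDKN2D above RB1 in 6 of 6, whereas CDKN1B was above CDKN2D in 3 of 6 and RB1 above CDKN2C in 2 of 6.

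CCND1, on chromosome 11 from 69641087 to 69654474 (GRCh38), encodes the cyclin on which growth factor and adhesion signals converge. It had 27.1, 41.5 and 29.5 CPM in 8000 Pa replicates 1, 2 and 3, against 12.4, 42.2 and 15.6 CPM in 500 Pa replicates 1, 2 and 3. Replicates 1 and 3 were higher at 8000 Pa and replicate 2 was level, since 500 Pa replicate 2 had the highest value of all. The means were 32.7 ± 7.69 CPM at 8000 Pa and 23.4 ± 16.4 CPM at 500 Pa (SD, n = 3 each). The log2 fold change was 0.48 (SE 0.43, adjusted p of 1.00 by edgeR), and the 95% interval of the fold ran from 0.736 to 2.66.

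In the blocked fit CCND1 had a log2 fold change of 0.67 (SE 0.26), an unadjusted p of 0.0111 and an adjusted p of 0.298 by edgeR. It did not pass. At the looser limit of 0.05, 10.6% of tested genes had a smaller unadjusted p in that fit, and the share under 0.0111 was not computed. The 3 pairs gave log2 differences of 1.11, -0.03 and 0.91. Over the alternatives the adjusted p of CCND1 ran from 0.145 to 1.00. Its value moved with the library left out. Without 500 Pa replicate 2 the log2 fold change was 1.22 (adjusted p = 0.811 by edgeR), and without 500 Pa replicate 1 it was 0.20. Without 500 Pa replicate 3 it was 0.32. With 8000 Pa replicate 1, 2 or 3 left out in turn it was 0.60, 0.28 and 0.58. The genes most like CCND1 over the 6 libraries were RAB13, NDUFAF6 and SEC14L1, with Pearson r of 0.993, 0.991 and 0.990 among 8703 genes. SEC14L1 had 88.7, 111 and 90.003 CPM in 8000 Pa replicates 1, 2 and 3, against 53.7, 104 and 57.5 CPM in 500 Pa replicates 1, 2 and 3. These genes were picked for a profile like that of CCND1, so their low values in the same libraries add nothing to it.

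The ratio of CCND1 to CDKN1A counts within a library does not depend on scaling between libraries. An effect that differs with GC content would not cancel in it. It was 1.29, 1.16 and 0.646 in 8000 Pa replicates 1, 2 and 3, against 0.298, 1.54 and 0.292 in 500 Pa replicates 1, 2 and 3. The ratio in 500 Pa replicates 1 and 3 lay below every 8000 Pa library, and that in 500 Pa replicate 2 lay above every one. In order of score on the first principal component, lowest first, the values were 1.29, 1.54, 1.16, 0.298, 0.646 and 0.292. The part of that axis in the ratio was not tested. The ratio of CCND1 to CDKN1B was 2.09, 2.89 and 3.02 at 8000 Pa and 1.39, 2.14 and 2.02 at 500 Pa. These ratios combine genes chosen for this description and are given without a test.

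RB1 encodes the pocket protein at the end of this path. It had 15.2, 17.5 and 9.86 CPM in 8000 Pa replicates 1, 2 and 3, against 8.43, 13.6 and 9.85 CPM in 500 Pa replicates 1, 2 and 3. Replicate 3 was level at both stiffnesses and replicates 1 and 2 were higher at 8000 Pa. The means were 14.2 ± 3.93 CPM at 8000 Pa and 10.6 ± 2.68 CPM at 500 Pa, and the log2 fold change was 0.42 (SE 0.36, adjusted p of 1.00 by edgeR, 95% interval of the fold 0.777 to 2.31). Without 8000 Pa replicate 2 it was 0.24 and without 8000 Pa replicate 3 it was 0.65.

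**Figure D5:**
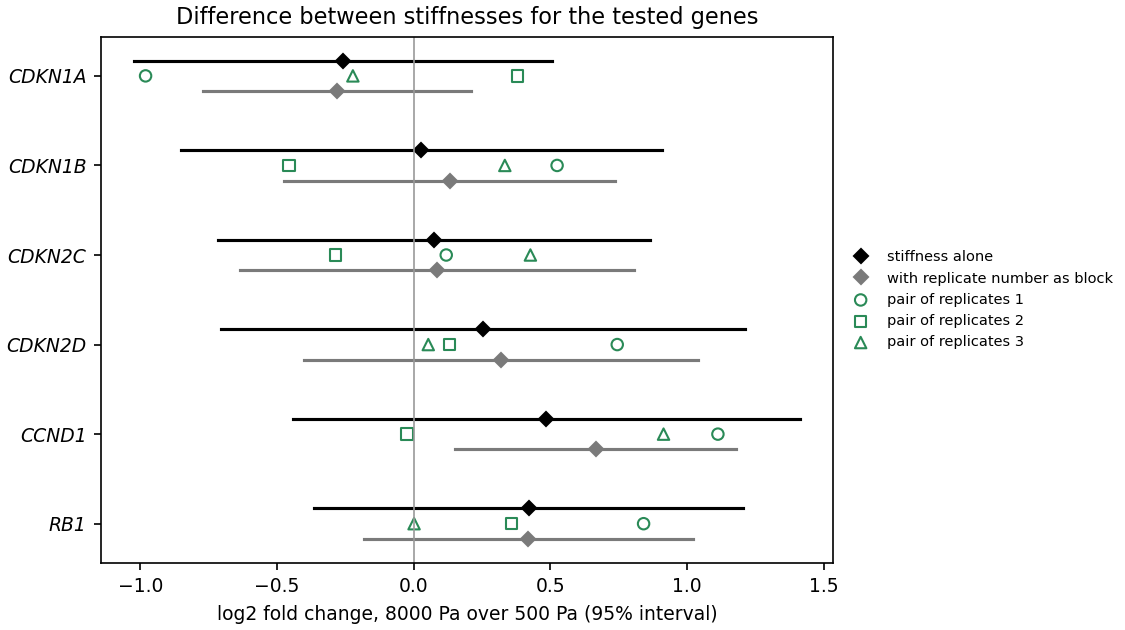
Log2 fold change of 8000 Pa over 500 Pa for the 6 tested genes, with 95% intervals from edgeR for stiffness alone (black) and with the replicate number as a block (grey), and the difference in each same-numbered pair (green open symbols). All intervals for stiffness alone cross 0, and with the block only that of CCND1, at 0.67, lies above it, with an adjusted p of 0.298.

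The partners and regulators of the brakes gave 0 calls. Among 16 other cyclins and kinases 14 were tested, with 0 higher, 0 lower and a median log2 fold change of 0.01. CDK4, the kinase that INK4 proteins bind, had 274 ± 61.5 CPM at 8000 Pa and 422 ± 141 CPM at 500 Pa (log2 fold change -0.62, SE 0.30, unadjusted p of 0.0568 and adjusted p of 1.00 by edgeR). CCNB1, the mitotic cyclin B1, had 476 ± 58.5 CPM at 8000 Pa and 328 ± 15.7 CPM at 500 Pa (log2 fold change 0.54, SE 0.23, unadjusted p of 0.0380 and adjusted p of 1.00 by edgeR), with groups that did not overlap. Of all tested genes 6.87% had groups that did not overlap. The blocked fit gave CDK4 a log2 fold change of -0.59 (unadjusted p of 0.0130 and adjusted p of 0.312 by edgeR). It gave CCNB1 0.53 (unadjusted p of 0.0236 and adjusted p of 0.366 by edgeR). Of the other D-type cyclins, CCND3 had 96.8 ± 36.6 CPM at 8000 Pa and 128 ± 53.1 CPM at 500 Pa. CCND2 had 0 counts in all 6 libraries, so CCND1 and CCND3 were the D-type cyclins detected.

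Of 18 pocket proteins, E2F factors and their partners 17 were tested and 0 were called, with a median of 0.11. RBBP4, a histone-binding protein of RB complexes, had 217 ± 36.5 CPM at 8000 Pa and 192 ± 38.1 CPM at 500 Pa, and MYBL2, an E2F-regulated activator of mitotic genes, had 64.0 ± 25.8 and 72.3 ± 36.8 CPM at 8000 and 500 Pa. All 17 genes of brake and cyclin D turnover were tested with 0 called and a median of 0.01, among them the ubiquitin ligase subunits SKP1 at 836 ± 65.8 CPM at 8000 Pa and 820 ± 95.6 CPM at 500 Pa and DDB1 at 477 ± 71.4 and 460 ± 37.3 CPM at 8000 and 500 Pa.

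All 20 factors chosen for their part in brake transcription were tested with 0 called and a median of -0.01. ID2, an inhibitor of basic helix-loop-helix factors, had 120 ± 6.44 CPM at 8000 Pa and 140 ± 10.3 CPM at 500 Pa. The 8000 Pa libraries all lay below the 500 Pa libraries, and the adjusted p was 1.00 by edgeR. Groups did not overlap in 6.87% of all tested genes.

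Of 16 genes for polycomb subunits, histone demethylases and DNA methyltransferases, which include KDM6A and KDM6B, whose products remove the polycomb mark, 13 were tested, 0 were called and the median was 0.10. DNMT1, the maintenance DNA methyltransferase, had 148 ± 3.14 CPM at 8000 Pa and 135 ± 38.3 CPM at 500 Pa, and EZH2, a histone methyltransferase, had 22.9 ± 8.60 and 18.4 ± 9.69 CPM at 8000 and 500 Pa. Of the 11 neighbours of CCND1 8 were tested, 0 were called and the median was 0.04. CTTN, the gene of cortactin, had 289 ± 7.999 CPM at 8000 Pa and 270 ± 27.0 CPM at 500 Pa, and MYEOV had 135 ± 40.9 and 154 ± 33.2 CPM at 8000 and 500 Pa. The growth factor genes FGF3, FGF4 and FGF19 of that neighbourhood had 0 counts in all 6 libraries.

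Library totals ran from 9068926 to 10739449 counts at 8000 Pa and from 8305601 to 18779742 at 500 Pa, and 3 counts equal 0.279 to 0.331 CPM at 8000 Pa and 0.160 to 0.361 CPM at 500 Pa. The label of an epithelial line fitted its markers. All 6 epithelial and 7 basal markers were tested, with summed levels of 11790 to 24568 and 2251 to 3981 CPM at 8000 Pa against 18699 to 30698 and 3598 to 5534 CPM at 500 Pa. The keratin genes KRT8 and KRT7 had 9049 ± 3219 and 4932 ± 2384 CPM at 8000 Pa, against 11234 ± 3604 and 6390.5 ± 2088 CPM at 500 Pa, and the laminin gene LAMB3 had 679 ± 166 CPM at 8000 Pa and 848 ± 76.2 CPM at 500 Pa. KRT17, a basal keratin, had 1208 ± 386 CPM at 8000 Pa and 2246 ± 999.7 CPM at 500 Pa, with a log2 fold change of -0.89 (adjusted p of 1.00 by edgeR) and of -0.83 in the blocked fit (unadjusted p of 0.00122, adjusted p of 0.117 by edgeR). Fibroblast and leukocyte lists were low, at 1.79 to 4.64 and 26.2 to 46.0 CPM at 8000 Pa against 1.23 to 1.86 and 24.003 to 50.7 CPM at 500 Pa, with COL1A2, COL3A1, LUM, THY1, PTPRC and CD3E at 0 in all 6 libraries. Of their tested genes, COL1A1 had 2.15 ± 1.47 CPM at 8000 Pa and 1.20 ± 0.677 CPM at 500 Pa, CD68 had 18.8 ± 5.76 and 22.5 ± 11.4 CPM at 8000 and 500 Pa, and CD14 had 13.6 ± 6.33 and 8.97 ± 2.27 CPM at 8000 and 500 Pa. The endothelial list summed to 212 to 257 CPM at 8000 Pa and 100.1 to 155 CPM at 500 Pa, with TEK, CLDN5 and EMCN at 0. Most of that sum was PECAM1, at 219 ± 19.7 CPM at 8000 Pa and 111 ± 30.3 CPM at 500 Pa. PECAM1 and CDH5 rose in the blocked fit (log2 fold change 1.01 and 1.99, adjusted p of 0.00537 and 3.14e-04 by edgeR). That fit called 0.53% of all tested genes. For stiffness alone neither passed, with log2 fold changes of 0.98 and 2.05. The part of any of these lists in the members' values was not tested. In bulk RNA a change in the share of cells in one phase and a change in RNA per cell cannot be told apart.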

How the data were processed

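RNA libraries of MCF10CA1a cells, 3 at 8000 Pa and 3 at 500 Pa, were assigned to groups by their labelled stiffness. For each library the authors deposited whole-number read counts for 26484 gene symbols, not normalized, and TMM-scaled log2 values. The submitters' processing notes name HISAT2 2.1.2, HTSeq 0.11.4, limma, DESeq2 and GRCh38; the sources used here do not give strandedness, annotation release or the handling of multiply mapped reads. Columns of no sample numbered 0. The deposited log2 values, filled for 5 of the 10 genes, differed by at most 0.0946 from log2 of the CPM used here and were not used further.

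Counts were tested with edgeR 4.0.16 (R 4.3.3): filterByExpr (minimum count 10, minimum total 15; 11517 genes), TMM, quasi-likelihood F test of stiffness, Benjamini-Hochberg adjustment over all tested genes, FDR 0.05. CPM are counts scaled to a TMM-adjusted library of 1000000, except summed levels and limits of silent genes, which use raw totals. The standard error is the fold change divided by the root of F. Alternatives used DESeq2 1.42.0, limma 3.58.1, a replicate block, other scaling and filters, a GC and length offset, and left-out libraries. The steps were tested on simulated data with known changes, where recovery was required only of the fits with the block. The simulation held no axis tied to GC content, so it cannot speak to the axis seen here. Same-numbered libraries deviated together from their group means, with correlations across genes of 0.409, 0.184 and 0.516 for replicates 1, 2 and 3. Each was over 0.1, so the blocked fit and the pair differences took the numbers to pair the samples. The fit of stiffness alone, from which values without a named fit come, leaves the pairing out. No shared day is stated. Of the differently numbered pairs, 8000 Pa replicate 1 with 500 Pa replicate 2 reached 0.199, above the 0.184 of replicate 2, and the other 5 ran from -0.499 to 0.049. No 2 libraries of a group agreed within sampling noise (chi-square per degree of freedom 30.0 or more).

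The members and lists were chosen with earlier results of these data known. All members were named; from each list the genes that passed in either fit or, failing these, the 2 of highest level, and for CDKN1A and CCND1 the 3 most similar genes. A gene and a list that this rule covers are not reported here. Neighbours on 9p21, 11p15 and 11q13 could also be given by counts. MRI1, APIP, ENOPH1, ADI1, RING1, BMI1, KDM6A, KDM6B, CCND2, CCND3 and marker or neighbour genes at 0 were named after their values were seen. Positions, lengths and GC content came from GENCODE 29 (GRCh38), which held 95.5% of tested genes by symbol. RefSeq promoter windows (GRCh38.p14) were found for 8 of the 10 genes, 11 windows in all.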

Additional observations from a re-analysis of the deposited data

How the results depend on the processing

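The count of members called stayed at 0 under all 18 alternatives, and the count of silent members was 4 with a limit of 10 counts and 3 with a limit of 0. The count over all tested genes, 0 for stiffness alone, was 61 with the replicate block, 42 in DESeq2 with the replicate block, 138 with the GC and length offset and the replicate block, 7 in DESeq2 without it, 8 without the filter, 0 to 1 with single libraries left out, and 38, 81 and 12 in the replicate block fit without replicates 1, 2 and 3. It was 0 in limma-voom, with library size alone, with DESeq2 size factors and with the offset alone. In each fit with the block 2 genes of the context lists passed, except 0 without replicate 3. Of 108 log2 fold changes of the 6 tested members over the alternatives 98 kept their sign and 10 did not, and none passed (0). With single libraries left out CDKN1A ran from -0.52 to 0.020, CDKN1B from -0.15 to 0.56 and CDKN2D from -0.065 to 0.59. CDKN1A turned to 0.020 without 500 Pa replicate 3 and to 0.094 in the block fit without replicate 1. CDKN1B turned to -0.069 with the offset, to -0.011, -0.091, -0.12 and -0.15 without 8000 Pa replicates 1 and 2 and 500 Pa replicates 1 and 3, and to -0.071 in the block fit without replicate 1. CDKN2C turned to -0.026 in the block fit without replicate 3, and CDKN2D to -0.065 without 500 Pa replicate 1. The cause of these turns was not tested. CCND1 and RB1 stayed above 0 throughout, at 0.20 to 1.22 and 0.21 to 0.66. By CPM without length, RB1 ranked 3, CDKN1B 4 and CDKN2D 5 in place of 5, 3 and 4, and by the longest transcript, an alternative chosen after seeing the data, no rank changed. MTAP and the 3 members at 0 counts were too low to be tested at this depth.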
